A study of Homo sapiens with 4 samples.

Results

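The promoters of the genes that encode the proteasome were examined in the list of new MBD-seq peaks of HEK293 cells that had received the wild type DNMT3A-DNMT3L EpiEditor. The members are the protein-coding genes of GENCODE release 44, lifted to hg19, whose symbols consist of PSMA, PSMB, PSMC, PSMD, PSME, PSMF or PSMG and a number, except 2 that were left out by name. They number 46 of 19881 protein-coding genes with a canonical transcript, and the promoter is the stretch of 1000 bp on either side of the canonical start site.

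HEK293 is a human embryonic kidney cell line. The study compared untreated cells with cells that carried dCas9-SunTag, a single guide RNA against the CpG island of ISG15, and an antibody-fused DNMT3A-DNMT3L catalytic domain (Ab-3A3L) that was wild type or carried the K844E or R887E exchange in DNMT3A. All transfected cells were collected after 3 days and sorted for the fluorescent markers of the plasmids, and untreated cells received no plasmid. Each of these conditions had 1 library, and only the new peaks of the wild type condition were analysed here without replicates, so that no comparison of conditions is made.

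The proteasome degrades proteins tagged with ubiquitin. A barrel of alpha and beta rings, the 20S core, holds the proteolytic sites, and the 19S particle with its ATPases and ubiquitin receptors recognizes, unfolds and feeds in the substrates. Nearly all subunits are needed in every cell, and promoters of such genes usually lie in CpG islands that are free of methylation.

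In MBD-seq, sheared DNA is captured by the part of MBD2 that binds methylated CpGs, and fragments accumulate where these are dense. For each new peak the list gives its position, its summit and a fold, which is the number of fragments at the summit over a local background, together with the −log10 of a q-value. The smallest −log10 q listed was 2.0. Fold and p-value together gave back how many fragments lay at each summit, and the intervals given for this number are 95% exact Poisson intervals. These intervals and the binomial ones below cover counting error only. New means that the authors reported the peak as new compared to untreated cells. How untreated cells entered the peak calling, and so the background, is not given in the sources used here. A promoter without a listed peak may have stayed under the authors' threshold or may have been methylated in untreated cells already, and these cases cannot be told apart here.

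A new peak lay at 18 of the 46 proteasome promoters, or 39.1% (95% exact binomial interval 25.1% to 54.6%), against 42.1% of all protein-coding promoters. In the same classes of CpG number, 10 classes of equal size over all promoters, other promoters carried one in 43.6% of cases, which corresponds to 20.1 of 46 promoters. Both values lie inside the interval of the proteasome promoters. The median fold of their peaks was 6.62, with quartiles of 5.60 and 7.62, against 8.26 over all promoters with a new peak, with quartiles of 6.21 and 11.0. At 15 of the 18 promoters the fold was under the median of promoters with a new peak in the same class of CpG number.

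To show the sequences behind these values, stretches of 120 bases are given for the 2 members with the highest fold and for 4 members without a new peak. Those without a peak are the 3 with the most CpGs within 1000 bp of the start site and the 1 with the fewest. All are read 5′ to 3′ on the strand of the gene in hg19, lie outside annotated exons, and have each CpG, the substrate of the methyltransferase, in capitals. For members with a peak the stretch is the one in the peak nearest to its summit, and for the others it lies upstream of the start site.

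PSMG4 (peak; chr6:3259431-3259550, plus strand, 250 to 369 bp downstream of the start site, 14 CpGs): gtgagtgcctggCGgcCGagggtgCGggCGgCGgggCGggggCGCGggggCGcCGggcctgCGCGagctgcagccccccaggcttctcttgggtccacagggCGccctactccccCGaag
PSMA1 (peak; chr11:14542020-14542139, minus strand, upstream, 12 CpGs): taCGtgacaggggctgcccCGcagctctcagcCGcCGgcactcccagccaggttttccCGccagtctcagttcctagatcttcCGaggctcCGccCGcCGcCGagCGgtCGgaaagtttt
PSMD13 (no peak; chr11:236496-236615, plus strand, 9 CpGs): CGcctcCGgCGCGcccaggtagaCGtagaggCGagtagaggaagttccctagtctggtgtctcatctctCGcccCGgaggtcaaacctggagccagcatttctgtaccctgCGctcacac
PSME4 (no peak; chr2:54198459-54198578, minus strand, 5 CpGs): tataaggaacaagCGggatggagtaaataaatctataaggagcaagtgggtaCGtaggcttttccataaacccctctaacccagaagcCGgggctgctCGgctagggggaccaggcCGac
PSMB3 (no peak; chr17:36908874-36908993, plus strand, 5 CpGs): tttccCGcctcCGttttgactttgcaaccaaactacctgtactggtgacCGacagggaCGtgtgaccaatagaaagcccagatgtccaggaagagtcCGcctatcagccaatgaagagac
PSMC2 (no peak; chr7:102987837-102987956, plus strand, 1 CpG): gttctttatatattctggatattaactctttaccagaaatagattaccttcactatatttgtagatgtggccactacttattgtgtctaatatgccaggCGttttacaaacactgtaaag

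The stretches in the peaks of PSMG4 and PSMA1 held 14 and 12 CpGs, and those of the members without a peak between 1 and 9. These members were picked by fold or by CpG number, and their stretches were placed by different rules. The counts therefore describe the printed stretches only and do not compare promoters with and without a peak. At PSMG4, PSMA1, PSMD13, PSME4 and PSMB3 between 88.1% and 100% of the words of 20 bases in the stretch occurred once in the reference, and at PSMC2 87.1%.

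The CpG number of the proteasome promoters was compared with the occurrence of new peaks, because new peaks were listed mostly in CpG-rich sequence. The 46 promoters held between 36 and 287 CpGs, with a median of 90 and quartiles of 77.5 and 110, close to the median of 96 over all promoters. Their median observed/expected CpG ratio was 0.691, against 0.637 over all promoters. When all promoters were divided into 10 classes of equal size by CpG number, 14 proteasome promoters fell into the 4 lowest classes, with up to 82 CpGs, and none of these had a new peak. The classes would give 2.49 promoters, and a count of 0 of 14 allows a share of up to 21.4% if it is taken to allow 3 counts. In the 6 upper classes 18 of 32 had one, or 56.2% (95% exact binomial interval 37.7% to 73.6%), and the classes would give 17.6. The member with the fewest CpGs and a new peak was PSMD9, with 85. The division between the fourth and the fifth class was chosen after these values had been seen.

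**Figure D1:**
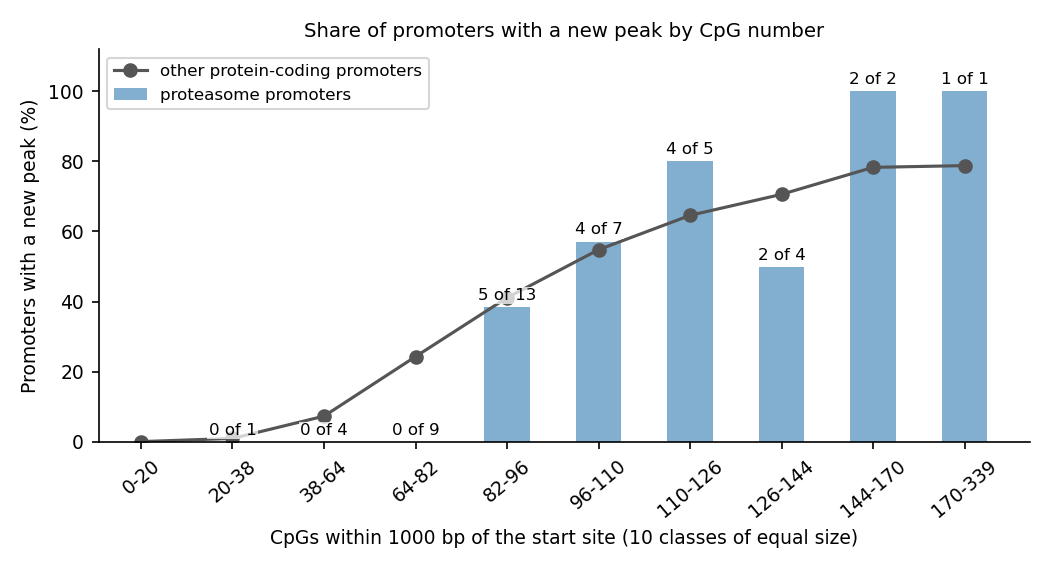
Percent of promoters with a new peak (vertical axis) in 10 classes of CpG number within 1000 bp of the start site (horizontal axis). The line gives the other protein-coding promoters and the bars the proteasome promoters with their counts, which are 0 in the classes up to 82 CpGs and 5 of 13 in the class from 82 to 96 CpGs, where other promoters reach 41.1%.

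Among the 18 proteasome promoters with a new peak, fold and CpG number had a Spearman rho of -0.0950, and Pearson’s r was -0.112. Without PSMA7, which has far more CpGs than the other members, the values over 17 promoters were -0.0822 and 0.0187. Over all 8364 promoters with a new peak they were 0.0486 and 0.0403. These promoters come from the same library, and the values are given as a description.

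**Figure D2:**
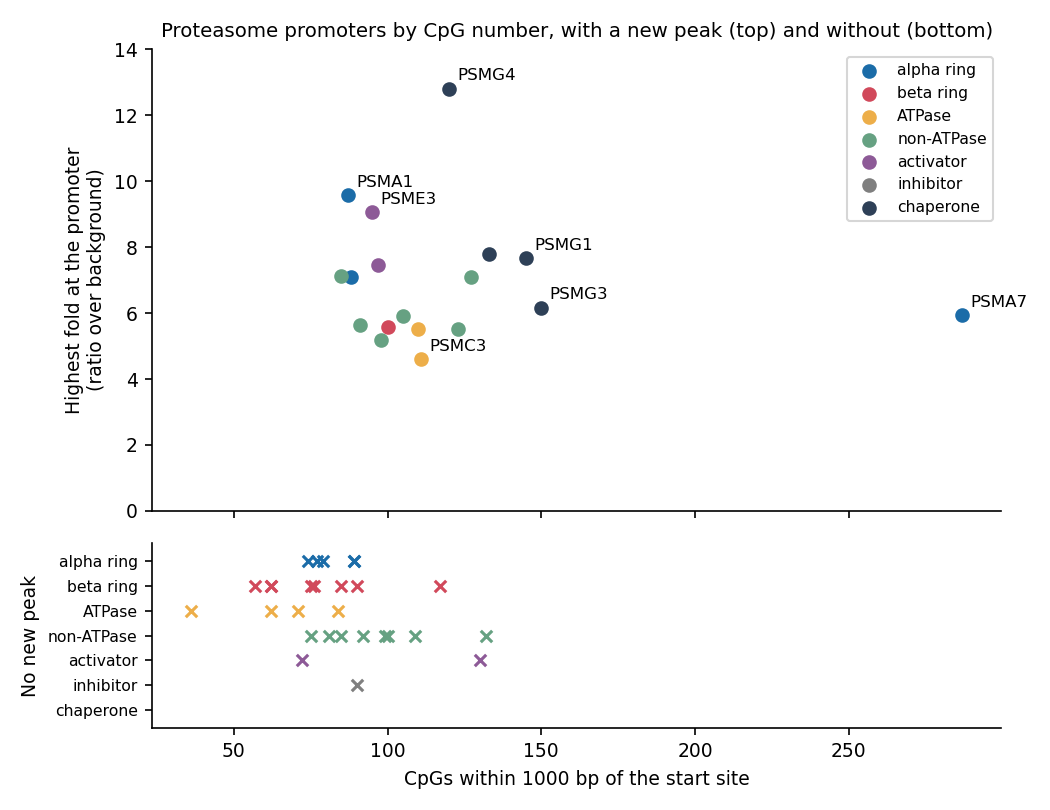
Highest fold at each of the 18 proteasome promoters with a new peak (upper panel) against the CpGs within 1000 bp of the start site, and the CpG numbers of the 28 promoters without one (lower panel), coloured by role. PSMG4 has the highest fold, 12.8, and PSMA7 the most CpGs, 287.

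The alpha rings, which form the gate of the 20S core, had a new peak at 3 of 8 promoters, where like CpG numbers would give 3.16. The highest fold was at PSMA1, 9.58, in a peak on chromosome 11 from 14541596 to 14542269 (hg19) that covers the start site with 674 bp, or 60.9% of the CpGs of the promoter. Its summit lies 148 bp upstream of the start site and held 18 fragments (10.7 to 28.4). At PSMA4 the fold was 7.08, from 11 fragments (5.49 to 19.7), and the peak also covers the start site.

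PSMA7 had a pair of peaks. The one with the higher fold, 5.94, lies on chromosome 20 from 60719391 to 60719752, mostly beyond the promoter, with its summit 1138 bp upstream of the start site in the neighbouring gene SS18L1, whose start site is 375 bp upstream on the other strand. The other, from 60717659 to 60718481, covers the PSMA7 start site with 116 CpGs and has a fold of 5.26, from 16 fragments over a background of 2.23. The PSMA7 promoter holds 287 CpGs at a GC content of 75%, both the highest of all members, and its fold was under the median of the members. PSMA2, PSMA3, PSMA5, PSMA6 and PSMA8, a testis form of an alpha subunit, had no new peak. Of these, PSMA2 and PSMA5 have 89 CpGs each, 1 more than PSMA4 and 2 more than PSMA1.

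The beta rings carry the active sites. Of 9 promoters 1 had a new peak (11.1%, 95% exact binomial interval 0.281% to 48.2%), where promoters of like CpG number would give 2.72. It was PSMB4, a structural subunit, with a fold of 5.59 from 8 fragments (3.45 to 15.8) in a peak of 306 bp that begins 109 bp downstream of the start site. No new peak was listed for the catalytic subunits PSMB5, PSMB6 and PSMB7, with 62, 62 and 75 CpGs. PSMB10, the inducible form of a catalytic subunit in the immunoproteasome, had none either, with 90 CpGs, and neither did PSMB11, the form particular to the thymus, with 57 CpGs. PSMB1 and PSMB2, further beta subunits, had none with 76 and 85 CpGs. PSMB3 had none in spite of 117 CpGs, and the nearest new peak lies 2624 bp upstream at PCGF2, with a fold of 16.0. The beta genes as a group had fewer CpGs, with a median of 76.0, than the members as a whole.

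The ATPases of the 19S particle, a ring that unfolds substrates, had a new peak at PSMC3 and PSMC5, 2 of 6, against 2.03 by CpG number. PSMC3 had the lowest fold of all members, 4.61, from 19 fragments over a background of 3.34. Its peak of 253 bp lies from 588 to 840 bp upstream of the start site, and the words of 20 bases in it occurred a median of 3009 times in the reference, with 5.98% of them occurring once. In the other 19 peaks at proteasome promoters between 86.3% and 99.7% of the words occurred once. Without the PSMC3 peak 17 of 46 promoters had a new peak, with a median fold of 7.08. Peaks in repeated sequence were not taken out at other promoters, so that these values have no counterpart over all promoters. The part that repeated sequence plays in this peak was not tested.

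At PSMC5 a pair of peaks with the same fold, 5.51, each from 11 fragments, flank the start site, which lies between them. One lies from 486 to 762 bp upstream and the other from 60 to 390 bp downstream, where it covers the start site of FTSJ3 on the other strand. PSMC2 has 36 CpGs around its canonical start site and no new peak there, but 4 of its transcripts start 2729 to 3389 bp further upstream, next to DNAJC2. A new peak of 254 bp lies there on chromosome 7 from 102984981 to 102985234, with a fold of 8.07 from 12 fragments, and the surroundings of these starts hold 71 to 73 CpGs. With any annotated start site in place of the canonical one, PSMC2 was the only member added, and the count became 19, against 45.5% of all promoters. PSMC1, PSMC4 and PSMC6, with 71, 84 and 62 CpGs, had no new peak.

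The non-ATPase subunits of the 19S particle and the assembly factors grouped with them by symbol had a new peak at 6 of 14 promoters, or 42.9%, where like CpG numbers would give 6.93. The highest fold was at PSMD9, an assembly chaperone of the ATPase ring, with 7.12 from 15 fragments. PSMD11, a scaffold subunit of the lid, had 7.08 from 11 fragments, with the summit 512 bp downstream of the start site. PSMD2, a scaffold of the base, PSMD7, PSMD8 and PSMD12 had folds of 5.53, 5.90, 5.18 and 5.65, from 8 to 10 fragments each. PSMD8 had the second lowest fold of the members, with 8 fragments (3.45 to 15.8) at a summit 147 bp downstream of the start site, in the coding part of exon 1. All 6 summits of this group were downstream of the start site, and only the peak of PSMD12 covers it. Over all promoters with a new peak 70.6% of the summits were downstream, and 64.4% of the start sites lay inside a peak.

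No new peak was listed for PSMD14, the deubiquitinase of the particle, with 75 CpGs, nor for PSMD4, a ubiquitin receptor, with 81. PSMD13 had none with 132 CpGs, the most of any member without a peak, on a promoter that holds the start site of SIRT3 634 bp upstream. PSMD1, PSMD3, PSMD5 and PSMD6, with 92 to 109 CpGs, and PSMD10, with 85, also had none. In this group the CpG numbers of promoters with a peak, from 85 at PSMD9 to 127 at PSMD11, and without one, from 75 to 132, overlapped widely.

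Of the activators, which open the gate of the 20S core, PSME1 and PSME3 had a new peak and PSME2 and PSME4 had none. PSME3, the nuclear activator, had the third highest fold of the members, 9.05, from 16 fragments (9.15 to 26), with the summit 49 bp downstream of the start site in the untranslated part of exon 1. The peak at PSME1, from 551 bp upstream to 453 bp downstream, is 1005 bp wide and holds 83.5% of the CpGs of the promoter, the largest share among the members, with a fold of 7.47. The partner of PSME1 in the interferon-inducible activator, PSME2, has 72 CpGs at a lower observed/expected ratio of 0.434, and its nearest new peak lies 5013 bp away at EMC9. PSME4 had none with 130 CpGs, and the nearest new peak is 359454 bp away. The inhibitor PSMF1 had none with 90 CpGs.

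The chaperones that assemble the alpha ring, PSMG1 to PSMG4, had a new peak at 4 of 4 promoters (95% exact binomial interval 39.8% to 100%), and they hold 120 to 150 CpGs, for which the classes would give 2.92. PSMG4 had the highest fold of all members, 12.8, with a −log10 q of 25.3 and 30 fragments at the summit (20.2 to 42.8) over a background of 1.42. Its peak, on chromosome 6 from 3259178 to 3259755, covers the start site and has its summit 283 bp downstream, in an intron. Of all new peaks 89.3% had a lower fold, and so did 86.3% of the promoter peaks in its CpG class. The others had lower folds, 7.67 at PSMG1 from 12 fragments (6.20 to 21.0), 7.79 at PSMG2 from 15 fragments (8.40 to 24.7) and 6.16 at PSMG3, also from 15. The PSMG2 peak lies wholly upstream, from 220 to 754 bp, over the start site of CEP76 on the other strand. The PSMG3 peak is the widest of the members, 1028 bp, with 103 CpGs.

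No test was made between the roles, and the value for promoters of like CpG number lay inside the exact interval of each role. Of the larger groups, 4 of 17 promoters of the 20S core had a new peak, or 23.5% (6.81% to 49.9%), against 34.6% by CpG number. For the PSMC and PSMD genes, the assembly factors PSMD5, PSMD9 and PSMD10 included, it was 8 of 20, with an interval of 19.1% to 63.9%, against 44.8%.

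The height of the peaks was examined further, because the median fold of the members was under that of all promoters with a new peak. The number of fragments at the summit had a median of 13.5 with a range from 8 to 30, against 17 over all promoters with a new peak. The mean of the class medians, over the CpG classes of the members with a peak, was 16.2. The background rate had a median of 0.966, against 0.720 over all promoters with a new peak and 0.737 in the same classes. The median of the members was thus lower for the fragments and higher for the background, and neither difference was tested. When only new peaks with at least the median fold of the list, 7.45, were used, 6 of 46 proteasome promoters had one, or 13.0%, against 25.9% of all promoters and 26.3% by CpG number. These were PSMA1, PSME1, PSME3, PSMG1, PSMG2 and PSMG4. With a −log10 q of at least 10 the count was 5, against 24.9% of all promoters and 24% by CpG number, namely PSMA1, PSMA7, PSME3, PSMG2 and PSMG4. PSMA7 was counted only through its peak in SS18L1, mostly beyond the promoter, with a −log10 q of 12.1. The peak over the PSMA7 start site had 6.59. The counts of 6 and 5 draw on the same peaks as the lower median fold and are not separate results. With 18 peaks from 1 library the difference in fold has no replicate check.

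**Figure D3:**
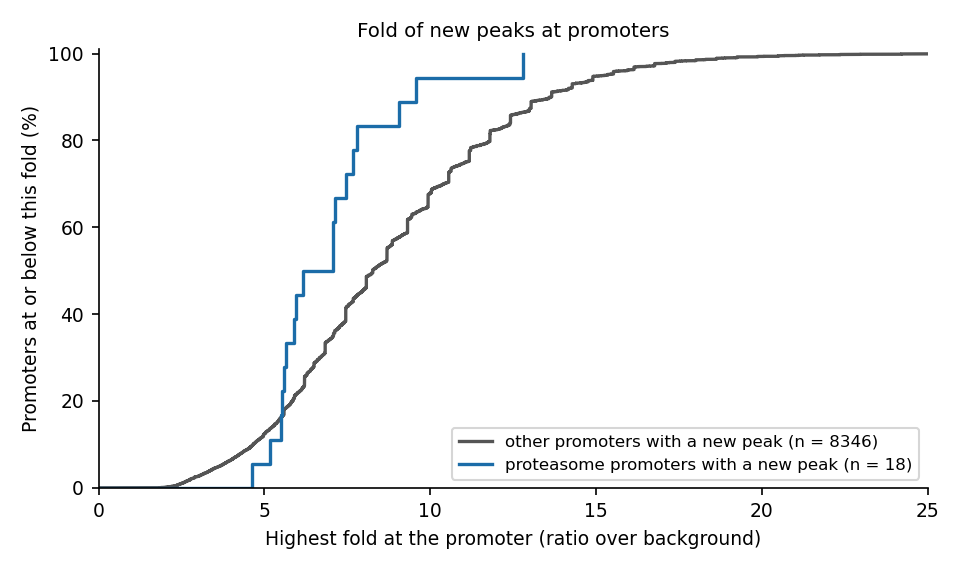
Cumulative percent of promoters (vertical axis) by the highest fold of a new peak at the promoter (horizontal axis), for 18 proteasome promoters and 8346 other promoters with a new peak. The proteasome curve lies to the left of the other above a fold of about 6, with medians of 6.62 and 8.26, and the highest fold of the other promoters, 37.2, lies beyond the end of the axis.

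The width of the peaks and their cover of the start site were described in the same way. The median width was 418 bp, with a range from 253 to 1028 bp, against 594 bp over all promoters with a new peak. The mean of the class medians, over the same CpG classes, was 577 bp. The peak with the highest fold held a median of 39.3% of the CpGs of the proteasome promoter, with a range from 2.09% at PSMA7 to 83.5% at PSME1, against 49.6% over all promoters with a new peak. The start site lay inside a new peak at 9 of the 46 genes, or 19.6%, against 27.1% of all genes and 28.3% by CpG number. These 9 were PSMA1, PSMA4, PSMA7, PSMD12, PSME1, PSME3, PSMG1, PSMG3 and PSMG4.

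The position of the summit relative to the start site was read along the direction of transcription. It was downstream at 13 of the 18 promoters, or 72.2%, against 70.6% of all promoters with a new peak, and the median distance was 136 bp downstream, against 165 bp. The summit lay in an intron at 8 promoters, in the coding part of exon 1 at 3, in the untranslated part of exon 1 at 2, and upstream at 5. The upstream summits were those of PSMA1, PSMA7, PSMC3, PSMG2 and PSMG3.

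**Figure D4:**
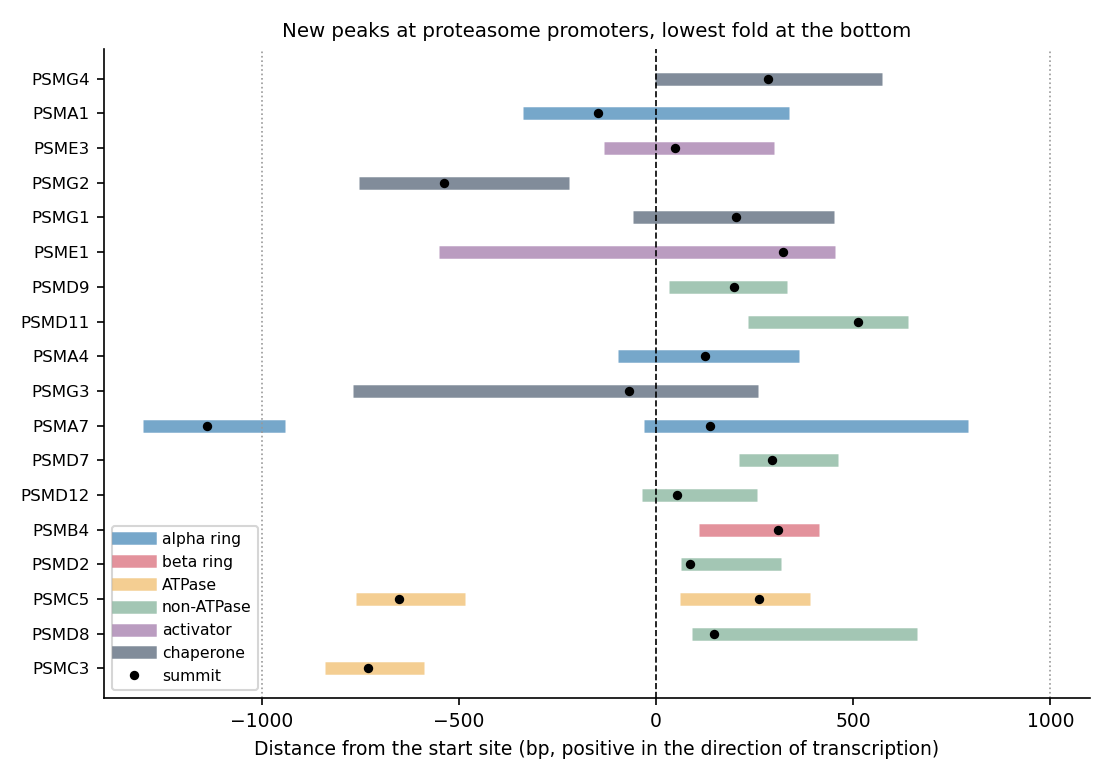
Extent of each new peak (bars) and its summit (points) at the 18 proteasome promoters, by distance from the start site in bp, with the direction of transcription to the right and the lowest fold at the bottom. Dotted lines mark 1000 bp on either side. Bars cross the start site at 9 promoters, and PSMA7 and PSMC5 have a pair of peaks each.

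A start site of another protein-coding gene with a symbol lay within 1000 bp at 8 of the 46 proteasome promoters, namely those of PSMA2, PSMA7, PSMC5, PSMD10, PSMD13, PSME2, PSME4 and PSMG2. Of these, PSMA7, PSMC5 and PSMG2 had a new peak. With coding genes that carry only an identifier, which adds PSMA1 and PSMD9, it was 5 of 10, against 49.2% of all promoters with another coding start within 1000 bp and 40.9% of those without one. At PSMA7, PSMC5 and PSMG2 a peak lies in or over the neighbour as well, so that it cannot be ascribed to 1 gene. The same limit holds at PSMA1 and PSMD9, where the other coding start lies only 42 and 19 bp downstream on the same strand. The PSMA1 peak covers that start, and the PSMD9 summit lies in the other gene. This limit also holds at PSME3 and PSMG3, whose peaks cover an annotated start of BECN1 and of PSMG3-AS1. At PSMD11 the summit lies in another annotated gene that carries only an identifier, so that it holds there too. A shared promoter did not come with a peak in every case, as at PSMD10 and ATG4A, with start sites 236 bp apart, and at PSME4 and ACYP2, 120 bp apart. PSMD10, an oncoprotein also known as gankyrin and an assembly factor of the base, is the only member on chromosome X.

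For the 28 proteasome promoters without a new peak, the nearest one lay between 2624 and 765618 bp from the start site, with a median of 29500 bp, against a median of 66200 bp over all promoters without one. It was more than 20 kb away at 21 of 28, or 75%, against 78.6% of all promoters without a new peak. None of the 28 had a new peak between 1000 and 2000 bp from the start site, and the count of 18 was the same with a promoter of 2000 bp on either side. Over all promoters the share with a new peak changed little too, from 42.1% with 1000 bp to 43.2% with 2000 bp. Both PSMB5 and PSMB11, which lie side by side on chromosome 14, have the peak at CDH24 as the nearest, and for PSMD14 it is a peak at DPP4. Of the 8 members on chromosome 14, PSME1 had a new peak, where the CpG numbers would give 1.74. On chromosome 17, 4 of 7 had one, at PSMC5, PSMD11, PSMD12 and PSME3, where they would give 3.44.

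Short sequence motifs were searched in the 250 bp upstream and 50 bp downstream of the start sites, on both strands. NFE2L1 is the transcription factor that raises the expression of proteasome genes when the proteasome is impaired, and its element was searched as TGACNNNGC. It was found in 13 of 46 proteasome promoters, or 28.3%, against 14% of all promoters. Of the 18 proteasome promoters with a new peak 5 held it, and of the 28 without one 8. Over all promoters it was found in 15.2% of those with a new peak and in 13.2% of those without. With the looser TGANNNNGC, which includes the former, 28 of 46 held a match, or 60.9%, against 42.1% of all promoters. It was found in 9 of 18 with a new peak and in 19 of 28 without one. The shares over all promoters were 41.2% and 42.8%.

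CCGGAAG, the core of sites for ETS factors, was found in 18 of 46 proteasome promoters, or 39.1%, against 14.1% of all. It was present in 6 of 18 with a new peak and in 12 of 28 without one, against 15.1% and 13.5% over all promoters. CCAAT, bound by NFY, was found in 19 of 46, or 41.3%, against 36% of all. With and without a new peak it was found in 6 of 18 and 13 of 28, against 32.3% and 38.6% over all promoters. The palindrome bound by NRF1, with its central pair of bases left free, was found in 7, or 15.2%, against 12.2% of all promoters. Over all promoters this pattern, which itself holds CpGs, was found in 18.6% of those with a new peak and in 7.61% of those without. In the proteasome promoters it was found in 4 of 18 and in 3 of 28. With the central bases set, it was found at PSMA4 only among the members, and in 1.70% of all promoters. A match describes the letters in the window and not the binding of a factor.

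The other genes of the ubiquitin-proteasome system were described from a list of 29. A new peak lay at 18 of their promoters, or 62.1% (95% exact binomial interval 42.3% to 79.3%), where like CpG numbers give 59.9%. Their median CpG number was 126, against 90 for the proteasome genes, and their median fold was 8.36. The highest fold was 14.3 at AKIRIN2, which carries proteasomes into the nucleus. Of the factors that control proteasome expression, NFE2L1 had a fold of 8.55 and NFE2L2 a fold of 10.6, and both start sites lie inside the peak. DDI2, the protease that activates NFE2L1, had 11.7 and NGLY1, the enzyme that removes its sugar chains, had 9.31.

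Of the further parts of the proteasome on this list, UCHL5, a deubiquitinase of the 19S particle, and USP14, another one, had a fold of 6.21 each, from 9 fragments. ADRM1, a ubiquitin receptor of the particle, had no new peak in spite of 194 CpGs, and SEM1, a small subunit of the lid, had none with 57. POMP, the maturation factor of the 20S core, had none with 86 CpGs, and neither did PAAF1 with 79. In the whole list 14 of 29 start sites lay inside a new peak, or 48.3%, against 27.1% of all genes and 38.6% by CpG number.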

How the data were processed

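MBD-seq libraries were made from HEK293 cells in 4 conditions with 1 library each, and the new peaks of the wild type Ab-3A3L library were used. Reads were mapped by the authors to hg19 with Bowtie2 under default settings, and FastQC, deepTools and MACS2 are named in the submitters' processing notes. The versions and the settings of peak calling are not given in the sources used here. The deposited list of 12864 peaks has the layout of a MACS2 file. Its fold is a ratio of fragments at the summit to a background, its −log10 values belong to a p-value and a q-value, a further deposited column places the summit within the peak, and its deposited score was not used. Fragments at the summit and background rate were calculated back as the pair of values whose ratio, after 1 was added to each, gives the fold and whose upper Poisson tail gives the p-value. The listed −log10 p was met within 0.000403 in all peaks, while the second best whole number missed it by a median of 0.261. The notes give no role for MACS2, so that its formulas were applied here by inference.

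Start sites were those of the canonical transcripts of 19881 protein-coding genes on chromosomes 1 to 22, X and Y in GENCODE release 44, and 282 genes without such a transcript were left out. The reference sequence was GRCh37, the build of hg19, and all peaks on these chromosomes end within it. Overlap of at least 1 bp was counted. For a promoter with several peaks, the one with the highest fold was used. Promoters were divided into 10 classes of equal size by the CpG number within 1000 bp of the start site, ties being split in annotation order, and the share of non-members with a new peak was averaged over the classes of the members. Symbols with letters after the number, such as PSMC3IP, were not taken as members. Full values are given for members with the highest and lowest folds, with several peaks or with shared promoters, and members without a peak are named. A few items of the wider list and 1 sequence are not reported here. The members, gene lists and motifs were chosen with earlier results of these data known. No p-value was computed. Precision is limited by 6 to 95 fragments at the summit of a promoter peak and by the absence of replicates. Scripts were tested on simulated data. The work was done with samtools 1.23.1, pysam 0.24.0, matplotlib 3.10.9, scipy 1.17.1, numba 0.67.0, pandas 2.3.3 and numpy 2.4.6 under Python 3.11.15.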

Additional observations from a re-analysis of the deposited data

How the results depend on the processing

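Of 34 alternatives, 23 stayed within 1.5 times for a count and within a 95% interval for a share or median. For the share by CpG number this interval, 28.9% to 58.9%, was that of a count among 46 promoters. It is a wide limit for calling a value unchanged and not the precision of the share, which rests on the non-members. When peaks under the median fold of the list were dropped, 6 of 46 proteasome promoters had a new peak, against 25.9% of all promoters. For the proteasome promoters the share by CpG number was 26.3%. Of their start sites 5 lay inside a new peak, against 18.3% of all, and 11 of 29 promoters of the wider list had one, against 25.9%. With a −log10 q of at least 10 these counts were 5, 3 and 10, against 24.9%, 17.6% and 24.9% of all promoters. The share by CpG number for the proteasome promoters was then 24%. Where peaks had to cover 50% of the promoter, 2 proteasome promoters and 3 of the wider list remained, against 8.5% of all promoters. The share by CpG number for the proteasome promoters was 4.08%. No share by CpG number was computed for the wider list under these 3 settings. Its promoters held more CpGs, with a median of 126 against 96 over all promoters, so that its counts are not matched for CpG number. These settings use fewer peaks or a stricter overlap by construction. With classes of the observed/expected ratio in place of the CpG number, the share was 52.6%, against 43.6% as reported. With symbols that carry letters after the number, 19 of 48 promoters had a new peak. Leaving out the PSMC3 peak was chosen after seeing the data. No paired analysis was possible because each condition has a single library without replicate. For a promoter without a listed peak, no methylation, methylation under the threshold at this depth and methylation already present in untreated cells cannot be told apart.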

Other observations

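Both genes whose symbols extend those of members encode interacting proteins and not subunits. PSMC3IP, which acts in meiotic recombination, had a new peak with a fold of 4.07, lower than that of any proteasome promoter, on a promoter of 94 CpGs. PSME3IP1 had none with 122 CpGs.

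Several pairs of proteasome promoters with nearly the same CpG number differed in whether a peak was listed. PSME4 with 130 CpGs and PSMD13 with 132 had none, whereas PSMD11 with 127 and PSMG2 with 133 had one, with folds of 7.08 and 7.79. PSMB3 with 117 CpGs had none, and PSMG4 with 120 had the highest fold of all members, 12.8. Of the other promoters, 64.6% with 110 to 126 CpGs and 70.6% with 126 to 144 had a new peak. Promoters of like CpG number thus differ in this way outside the proteasome genes too, and the pairs were picked for the contrast.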
